A study of Homo sapiens with 4 samples.

Results

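The mitochondrial protein import machinery was followed through ribosome footprints in 4 human leukemia cell lines. Its 32 member genes were taken by symbol from a list of the translocases of both mitochondrial membranes, the chaperones between them, the import motor, the presequence peptidase, the sorting and assembly machinery and the disulfide relay. All 32 were found among the 60651 genes of the files, and all 32 are nuclear protein-coding genes, of which there were 19893. They were picked by symbol and not by a measured value, though the list was drawn up with earlier results of these data known.

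Nearly all mitochondrial proteins are made on cytosolic ribosomes and must be carried into the organelle. Precursors pass the outer membrane through the TOM complex, and then take 1 of several routes: the TIM23 complex and its motor for proteins with a cleavable presequence, the small TIM chaperones and the TIM22 complex for carrier proteins, the sorting and assembly machinery for outer membrane barrels, and the disulfide relay for small cysteine-rich proteins. Ribosome footprints on these genes therefore measure the synthesis of the machinery itself and not the import it carries out.

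The series sequenced ribosome-protected fragments from 4 cultured lines, with 1 library per line, in a study of long non-coding RNAs that may also be translated. K562 cells, which carry erythroid traits, derive from a blast-phase chronic myeloid leukemia, THP-1 from an acute monocytic leukemia, MOLM13 from an acute myeloid leukemia with monocytic features, and HL60 from an acute promyelocytic-type leukemia. The labels name no treatment and no genotype. Per the labels, K562 and HL60 grew in IMDM, THP-1 in RPMI1640 with 2-mercaptoethanol and MOLM13 in DMEM, so line and medium cannot be told apart except between K562 and HL60. With 1 library per line there is no replicate error, so no test was run and no p-value is given, and every interval below covers counting error only.

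Depth ran from 344 aligned megabases in the MOLM13-labelled library to 973 megabases in HL60, with a modal footprint of 29 bases, and between 75.8% and 87.3% of them lay on nuclear protein-coding genes. At a scaled TPM of at least 1, K562 had 7 of 8 erythroid markers where the other libraries had 1 or 2, THP-1 had 8 of 8 monocyte markers, with a summed level of 4120, and HL60 7 of 8, at 749.8. Primary granule markers were at 6 of 6 in both, with a summed level of 9164 in THP-1 and 9571 in HL60. Neither this count nor this sum sets HL60 apart from THP-1. The level of MPO taken alone did, being 6359 for HL60 against 38.6 for THP-1. The MOLM13-labelled library had 3 of 8 monocyte markers, with a summed level of 32.4, and 6 of 6 primary granule markers with a summed level of 42.4. It held the T cell gene CD3D at 891. Its deposited data carry another sample name than its label, so it is called the MOLM13-labelled library in all results, and no result here could be checked against a second library of that line.

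Levels are given as scaled TPM, transcripts per 1000000 summed over the transcripts of a gene and divided by a factor per library (0.837 in K562, 1.01 in THP-1, 1.12 in the MOLM13-labelled library and 1.05 in HL60). TPM is per length, so levels of different genes can be set side by side. A level combines the amount of mRNA with the number of ribosomes on it, and in bulk cells the 2 cannot be told apart, nor can fewer expressing cells and less RNA per cell.

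Sequences of 4 members are shown because the results for these genes turn on which exon the footprints lay on. They are coding sequences in GENCODE release 29 on hg38, 5′ to 3′, whole for the first 3 and the first 88 bases for PAM16. Lower case marks coding bases in the exon with the start codon, and capitals mark coding bases in the exons after it.
TOMM5: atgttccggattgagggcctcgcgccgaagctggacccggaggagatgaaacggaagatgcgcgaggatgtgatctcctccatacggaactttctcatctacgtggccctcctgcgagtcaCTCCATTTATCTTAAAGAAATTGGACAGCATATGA
TOMM7: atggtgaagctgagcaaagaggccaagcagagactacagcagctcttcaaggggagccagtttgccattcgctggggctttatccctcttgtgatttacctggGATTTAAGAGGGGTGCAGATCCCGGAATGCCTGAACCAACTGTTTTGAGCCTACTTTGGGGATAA
TOMM6: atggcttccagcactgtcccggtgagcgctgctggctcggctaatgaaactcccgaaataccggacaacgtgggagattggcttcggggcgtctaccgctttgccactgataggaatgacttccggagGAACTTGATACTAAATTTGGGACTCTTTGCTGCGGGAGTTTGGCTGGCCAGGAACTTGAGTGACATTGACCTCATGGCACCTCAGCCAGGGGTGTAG
PAM16: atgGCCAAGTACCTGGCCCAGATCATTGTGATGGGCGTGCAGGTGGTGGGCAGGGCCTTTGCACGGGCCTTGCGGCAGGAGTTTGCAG
TOMM5 (chr9:37588898-37592532, minus strand), TOMM7 (chr7:22813170-22822779, minus strand) and TOMM6 (chr6:41787698-41789328, plus strand) have 52, 56 and 75 codons with the stop, and are the shortest coding sequences of the 32. The 97 capital letters of TOMM6 are the coding part of its second exon, which a longer gene, AL365205.1, carries too. In PAM16 only the start codon lies on the first coding exon, and the 85 capital letters are the next exon (chr16:4343207-4343291, minus strand), which CORO7-PAM16 carries with the same ends.

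**Figure D1:**
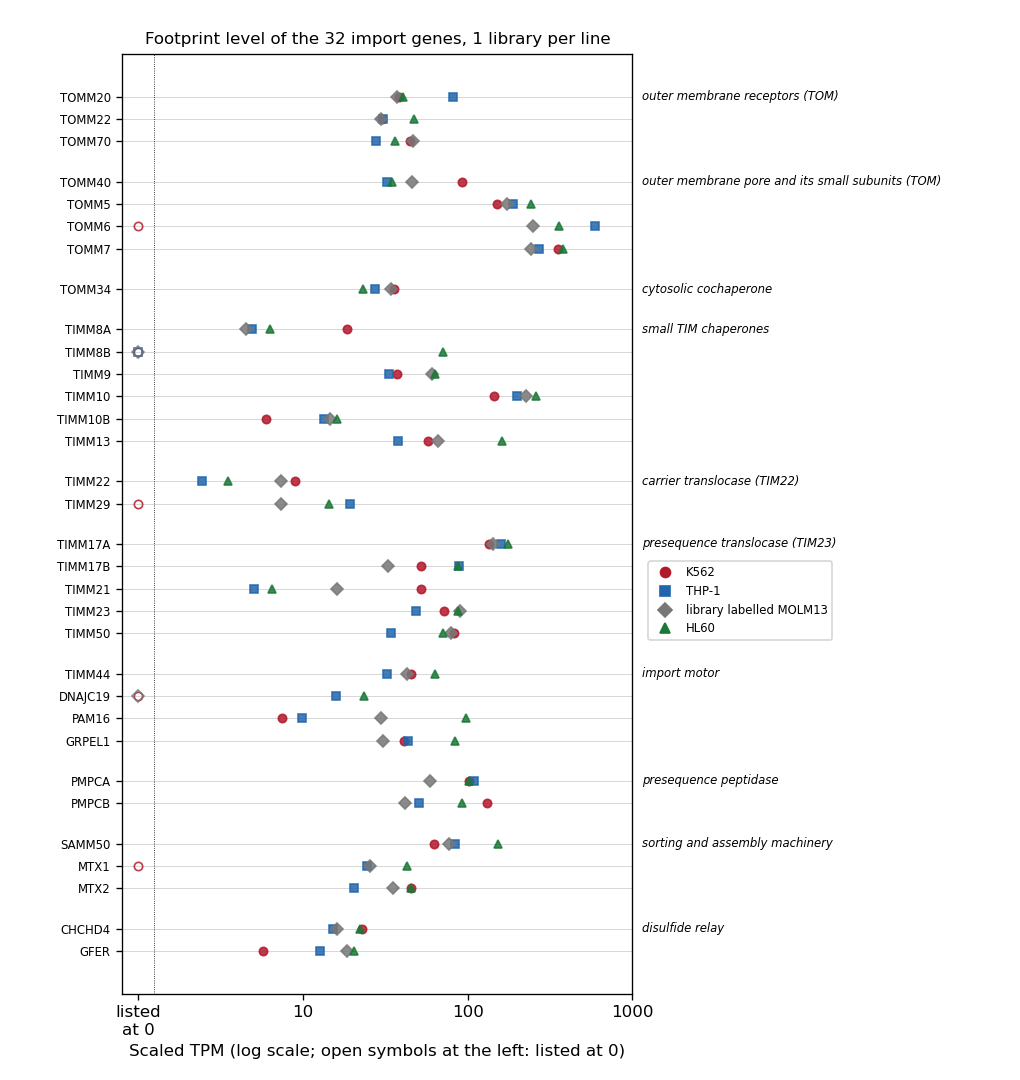
Scaled TPM of each member (horizontal, log scale) in the 4 libraries, grouped by role; each symbol is 1 library and open symbols at the left are genes listed at 0. Most members sit above 10, and 5 of the 32 are listed at 0 in at least 1 line.

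The import genes carried more footprints than most genes in each line. Of the 32, 22 in K562, 20 in THP-1, 23 in the MOLM13-labelled library and 25 in HL60 stood in the top 25% by level. The ranking covered the 12589 nuclear protein-coding genes with at least 600 aligned bases in any line. Their median scaled TPM was 43.0 in K562, 32.4 in THP-1, 36.1 in the MOLM13-labelled library and 63.2 in HL60, where that of all genes compared was 5.73, 6.995, 7.11 and 5.25 in the same order. The members together took 0.321% of the footprints on nuclear protein-coding genes in K562, 0.282% in THP-1, 0.300% in the MOLM13-labelled library and 0.385% in HL60.

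HL60 was the line with the highest level for 17 of the 32 members and the lowest for 1, TOMM34. Among the 12589 nuclear protein-coding genes with at least 600 aligned bases in any line, HL60 was highest for 19.8% and lowest for 25.9%. Ties went to the first line in the order K562, THP-1, the MOLM13-labelled library and HL60. The median member was 0.51 higher in HL60 than the mean of the other 3 lines on the scale of log2(scaled TPM + 1), and 25 of 32 members were above 0. The median of all genes, here the 11810 that reached a scaled TPM of 1 somewhere, was -0.21 in the same comparison. In K562 the median member stood at -0.22 against -0.10 for all genes, in THP-1 at -0.21 against 0.05, and in the MOLM13-labelled library at -0.07 against 0.12. The HL60 median was 0.32, with -0.36 for all genes, when TPM was rescaled to the same total over nuclear protein-coding genes. It was 0.31, with -0.28 for all genes, on aligned bases per 1000000 on those genes, which are not divided by transcript length. Its size thus changed with the scaling and its sign did not. The K562 median did not keep its sign: it was 0.02 with rescaled TPM, with 0.11 for all genes. HL60 was also the deepest library, and the part of depth in these values was not tested.

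**Figure D2:**
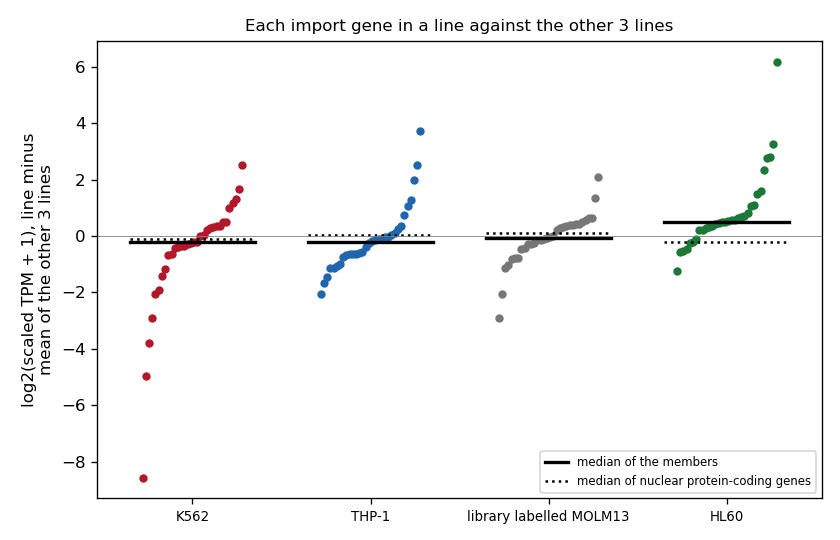
Each point is 1 of 32 import genes, placed by the difference between its log2(scaled TPM + 1) in 1 line and its mean over the remaining 3; solid bars are medians of the members and dotted bars medians of all 11810 genes. The solid bar lies above the dotted one in HL60 (0.51 against -0.21) and below it in the other 3 libraries.

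A call of high or low required a log2(scaled TPM + 1) at least 2, a 4-fold distance, away from the nearest other line, and at least 600 aligned bases. Of the 32 members, 4 were called, or 12.5%, against 14.2% of the 12589 nuclear protein-coding genes with that many bases in any line. TIMM8B was high in HL60, as were 1.39% of genes, while 7.99% were high in any 1 line. TOMM6, TIMM29 and MTX1 were low in K562, where 3.43% of genes were low. All 4 calls rest on a line listed at 0, and none is left when such genes are set aside. Among the members 5 were listed at 0 in at least 1 line, which is 15.6% against 35.7% of all genes. All 5 were at 0 in K562, with 1 of them at 0 in THP-1, 2 in the MOLM13-labelled library and none in HL60. For all genes these shares were 23% in K562, 10.7% in THP-1, 18.5% in the MOLM13-labelled library and 13.9% in HL60.

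Smaller distances were common. With a difference of at least 1, a 2-fold distance, 20 of 32 members were apart in at least 1 of the 6 pairs of lines, against 73.1% of all genes. K562 and HL60 were apart for 14 members (background 42.1%): 10 were higher in HL60, where 20.7% of all genes were, and 4 in K562, where 21.4% were. THP-1 and HL60 were apart for 5 members (background 29.4%), all 5 higher in HL60, the direction of 10.1% of genes, and none in THP-1, the direction of 19.3%. The MOLM13-labelled library and HL60 were apart for 8 members (background 41.1%), 7 higher in HL60 (16.5% of genes) and 1 lower there (24.5%). K562 and THP-1 were apart for 14 members (background 43%), 7 higher in K562 (17.3% of genes) and 7 in THP-1 (25.6%). K562 and the MOLM13-labelled library were apart for 10 (background 30.5%), 4 higher in K562 (11.7%) and 6 lower there (18.8%). THP-1 and the MOLM13-labelled library were apart for 9 (background 40.7%), 5 higher in THP-1 (20.9%) and 4 lower there (19.9%). These pairs share libraries, and none of the counts is independent of the others.

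At the outer membrane, 3 receptors pass precursors to the TOM pore. TOMM20, the receptor for presequences, had a scaled TPM of 38.4 in K562, 81.8 in THP-1, 37.2 in the MOLM13-labelled library and 40.6 in HL60. THP-1 stood alone at 2.02 times the next line, and the other 3 lay close together, with counting intervals that overlap from one to the next in order. TOMM22, the central receptor that ties the complex together, was 30.3 in K562, 30.5 in THP-1, 29.7 in the MOLM13-labelled library and 47.5 in HL60. TOMM70, the receptor used by carrier proteins and their cytosolic chaperones, was 44.8 in K562, 27.9 in THP-1, 46.4 in the MOLM13-labelled library and 36.0 in HL60. Each receptor was highest in a different library, although for TOMM70 the intervals of K562 and the MOLM13-labelled library overlap. TOMM34, a cytosolic cochaperone of precursors, kept within a 1.54-fold range, at 35.6 in K562, 27.4 in THP-1, 34.4 in the MOLM13-labelled library and 23.2 in HL60.

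The pore itself, TOMM40, was 92.9 in K562 (95% Poisson interval 88.8 to 97.2), 32.5 in THP-1, 45.9 in the MOLM13-labelled library and 34.8 in HL60. By TPM K562 lay 2.03 times above the next line, and the intervals of THP-1 and HL60 overlap. The leading TOMM40 transcript was 3415 bases long in the MOLM13-labelled library and 1768 bases in the other lines. On aligned bases scaled for depth and not divided by length, K562 was at 152 and the MOLM13-labelled library at 119, a narrower gap. THP-1 was then at 45.0 and HL60 at 66.5. The small subunits around the pore held far higher levels per length than the pore. TOMM7, which regulates the stability of the complex, was 351 in K562, 270.1 in THP-1, 241 in the MOLM13-labelled library and 381 in HL60. TOMM5, another small subunit, was 150.5 in K562, 187.5 in THP-1, 173 in the MOLM13-labelled library and 243 in HL60. By TPM both kept within 1.62-fold across the lines and were highest in HL60. The leading TOMM7 transcript was 514 bases long in K562 and 434 bases in the other lines. On aligned bases scaled for depth and not divided by length, TOMM7 was 218 in K562 and 186 in HL60. THP-1 was then at 121.5 and the MOLM13-labelled library at 119, so K562 was the highest and the range was wider. In K562 a longer gene on the same strand, AL138752.2, took a further 31773 aligned bases on the exons of TOMM5, beside 52334 on TOMM5 itself. It took none in the other lines. Without division by length, TOMM5 alone was 146 in K562, 136 in THP-1, 138 in the MOLM13-labelled library and 189 in HL60. With the bases of AL138752.2 on these exons counted in, K562 came to 235 and was the highest. Whether those bases belong to TOMM5 was not tested.

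TOMM6, the third small subunit, was listed at 0 in K562 and was 592 in THP-1, 250.5 in the MOLM13-labelled library and 358 in HL60, the highest level of any member. The K562 library did hold footprints at this locus. They were assigned to AL365205.1 (chr6:41780349-41790141, plus strand), which had 109465 aligned bases in K562, 0 in both THP-1 and the MOLM13-labelled library, and 91.4 in HL60. Of the 10 exons in the AL365205.1 transcript with signal, 7 hold no TOMM6 sequence, and 6 of these 7 had a depth of 0. Exons that hold TOMM6 sequence carried 109059 of the 109465 bases.

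The second exon of TOMM6 (chr6:41789232-41789336, 105 bases) has the same ends in both genes, so its depth can be compared without regard to the assignment. Per 1000000000 aligned bases on nuclear protein-coding genes, its total depth was 766 in K562 (95% Poisson interval 719 to 815), 657 in THP-1 (622 to 693), 444 in the MOLM13-labelled library (405 to 487) and 499.5 in HL60 (475 to 525). K562 was the highest of the 4, and 100% of its depth stood on AL365205.1. The first exon of TOMM6 lies inside a 1386-base exon of the longer gene, for which the deposited data give only a mean depth of 56.8. If the bases on exons that hold TOMM6 sequence were all its own, TOMM6 would reach 304 aligned bases per 1000000 in K562, beside 345.5 in THP-1, 167 in the MOLM13-labelled library and 226 in HL60. If they were spread evenly over each exon it would reach 109. On the even spread, chosen as an alternative after the values were seen, the call of TOMM6 as low in K562 is lost. The distance of K562 to the next line is then -0.61 log2 units on aligned bases per 1000000. With TOMM6 alone this distance was -7.39 on the same measure and -7.97 by scaled TPM.

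**Figure D3:**
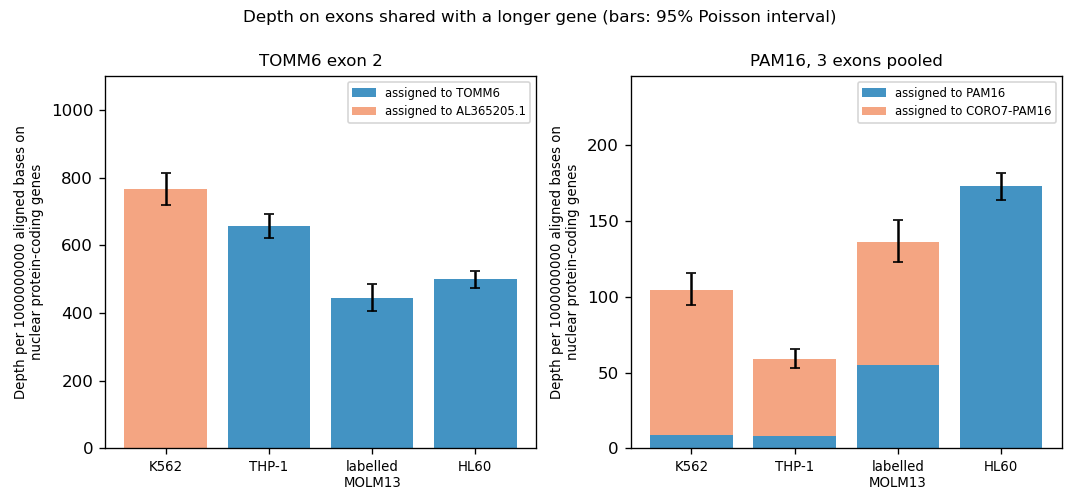
Depth per 1000000000 aligned bases on nuclear protein-coding genes over the second exon of TOMM6 (left) and 3 pooled exons of PAM16 (right), split by the gene the deposited values assign it to; error bars are 95% Poisson intervals of the total. The K562 bar of TOMM6 stands wholly on the longer gene and is the tallest of the 4, and the PAM16 bars differ far less in total than in the part assigned to PAM16.

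In the intermembrane space the small TIM proteins escort hydrophobic precursors, TIMM9 with TIMM10 and TIMM8A or TIMM8B with TIMM13. TIMM10 was 144 in K562, 200.0 in THP-1, 226 in the MOLM13-labelled library and 258 in HL60. Its partner TIMM9 was 37.3 in K562, 33.3 in THP-1, 60.5 in the MOLM13-labelled library and 63.2 in HL60. TIMM10B, the member that docks the chaperones on the TIM22 complex, was 5.96 in K562, 13.5 in THP-1, 14.5 in the MOLM13-labelled library and 16.0 in HL60. All 3 were highest in HL60, although for TIMM9 and TIMM10B the HL60 interval overlaps that of the MOLM13-labelled library. For TIMM10B, 87.6% of the bases in the MOLM13-labelled library were assigned to a 593-base transcript, where the other lines used one of 2788 bases. Without division by length TIMM10B was 19.9 bases per 1000000 in K562 and 10.8 in the MOLM13-labelled library, which turns their order around.

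TIMM13 was 57.5 in K562, 37.8 in THP-1, 66.0 in the MOLM13-labelled library and 161 in HL60. HL60 was 2.43 times the next line and 4.26 times THP-1, its counting interval ran from 157 to 164, and the same transcript led in all 4 lines. TIMM8A, which pairs with TIMM13 and is the gene of Mohr-Tranebjaerg deafness-dystonia syndrome, was 18.5 in K562, 4.88 in THP-1, 4.51 in the MOLM13-labelled library and 6.32 in HL60. K562 was 2.93 times the next line by TPM, where TIMM13 was highest in HL60. Its leading transcript there was 1494 bases long against 2951 bases in the other lines, and without division by length the levels were 35.2, 14.8, 15.0 and 19.1 bases per 1000000 in the same order of lines. K562 stayed the highest of the 4.

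TIMM8B, the other partner of TIMM13, was listed at 0 in K562, THP-1 and the MOLM13-labelled library, and at 70.7 in HL60 (interval 68.0 to 73.5). In HL60, 100% of its bases were assigned to a transcript that release 29 does not list as protein-coding. SDHD, a subunit of respiratory complex II that starts next to TIMM8B on the opposite strand, was listed at 0 in the same 3 lines and at 65.3 in HL60. NKAPD1, which overlaps TIMM8B on the opposite strand, was 10.6 in K562, 9.56 in THP-1, 38.0 in the MOLM13-labelled library and 10.2 in HL60. Since nearly all cells make SDHD, an exact 0 here is given only as listed, and no fold was taken against it.

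TIMM22, the channel of the carrier translocase, was among the lowest members, at 8.97 in K562, 2.44 in THP-1, 7.37 in the MOLM13-labelled library and 3.51 in HL60. Its 3.68-fold range came from a single transcript used in all 4 lines, with K562 and the MOLM13-labelled library above the other lines. TIMM29, a subunit of the same complex, was listed at 0 in K562 and stood at 19.2 in THP-1, 7.37 in the MOLM13-labelled library and 14.4 in HL60. Its neighbour YIPF2 had signal in all 4 lines, at 24.6 in K562 and from 13.5 to 16.5 elsewhere. With a pseudocount of 5, the distance of TIMM29 to the next line is -1.31 log2 units, and it is no longer called.

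The TIM23 complex takes presequence proteins through the inner membrane. Its channel TIMM23 was 72.3 in K562, 48.7 in THP-1, 89.8 in the MOLM13-labelled library and 86.9 in HL60, and its near-identical copy TIMM23B was listed at 0 in 3 lines and at 1.20 in HL60. TIMM17A, the channel partner, varied least of all members: it was 135 in K562, 160.1 in THP-1, 142 in the MOLM13-labelled library and 175 in HL60, a range of 1.30-fold. TIMM50, the receptor of the complex, was 82.5 in K562, 34.3 in THP-1, 79.3 in the MOLM13-labelled library and 70.6 in HL60. THP-1 was 2.06-fold below the next line for TIMM50, and was lowest for TIMM23 and TIMM21 too. TIMM17B, the second form of the channel partner, was 51.8 in K562, 89.1 in THP-1, 32.8 in the MOLM13-labelled library and 87.0 in HL60. Its leading transcript was not protein-coding in release 29 in any of the 4 lines, at 804 bases in THP-1 and HL60 and 1528 bases in the others. Without division by length the 4 values lay between 48.3 and 79.0 bases per 1000000.

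TIMM21, which links the TIM23 complex to the TOM complex and to the assembly of respiratory chain subunits, had the second widest range of the members above 0 in all lines. It was 51.9 in K562 (interval 49.1 to 54.9), 5.03 in THP-1, 16.1 in the MOLM13-labelled library and 6.46 in HL60. K562 was 3.24 times the MOLM13-labelled library and 10.3 times THP-1, and no 2 of the 4 counting intervals overlap. On aligned bases per 1000000, without division by length, TIMM21 was 103 in K562, 15.9 in THP-1, 55.9 in the MOLM13-labelled library and 21.5 in HL60, the same order. It was the 1 member to meet the 2-fold rule as higher in the MOLM13-labelled library than in HL60, while TIMM22, at 7.37 against 3.51 by scaled TPM, fell just short of it on the scale of log2(scaled TPM + 1). TIMM21 was not called at 4-fold because its distance to the nearest line was 1.63 log2 units.

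The import motor pulls presequence proteins into the matrix with the chaperone mtHsp70. TIMM44, which anchors the motor to the channel, was 45.4 in K562, 32.2 in THP-1, 42.5 in the MOLM13-labelled library and 63.1 in HL60. GRPEL1, the nucleotide exchange factor of the motor, was 41.2 in K562, 43.3 in THP-1, 30.6 in the MOLM13-labelled library and 83.2 in HL60, which was 1.92 times the next line. Without division by length GRPEL1 was 236 bases per 1000000 in HL60 and between 86.1 and 116 in the other 3. By TPM, HL60 was thus highest for both TIMM44 and GRPEL1. For TIMM44 this did not hold without division by length, with K562 at 99.3 bases per 1000000 and HL60 at 87.55. DNAJC19, the J protein that stimulates mtHsp70, was listed at 0 in K562 and in the MOLM13-labelled library, at 15.8 in THP-1 and at 23.5 in HL60. It was not called, since 2 lines share the lowest place, and the neighbouring gene FXR1 had signal in all 4 lines, from 54.6 in HL60 to 80.2 in the MOLM13-labelled library.

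PAM16, the inactive J-like partner that holds the J protein in check, had the widest range of the members above 0 in all lines. It was 7.45 in K562 (interval 5.93 to 9.23), 9.87 in THP-1 (8.15 to 11.9), 29.7 in the MOLM13-labelled library and 97.4 in HL60, a range of 13.1-fold. The readthrough gene CORO7-PAM16, annotated across both CORO7 and PAM16, was 18.4 in K562, 38.0 in THP-1, 24.5 in the MOLM13-labelled library and listed at 0 in HL60. Over the 3 exons with the same ends in both genes, 288 bases, the total depth per 1000000000 bases was 104.7 in K562 (94.3 to 116), 59.2 in THP-1 (53.1 to 65.9), 137 in the MOLM13-labelled library (123 to 151) and 173 in HL60 (164 to 182). Of this total, 91.3% stood on CORO7-PAM16 in K562, 86.2% in THP-1, 59.9% in the MOLM13-labelled library and 0% in HL60. HL60 was the highest of the 4 either way. The single 66-base exon (chr16:4340920-4340985) gave another order, with 304 in the MOLM13-labelled library and 150.2 in HL60.

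Once in the matrix, presequences are removed by a peptidase of 2 subunits, PMPCB with the active site and PMPCA with the substrate-binding loop. PMPCA was 102 in K562, 109 in THP-1, 58.7 in the MOLM13-labelled library and 102 in HL60. PMPCB was 131 in K562, 50.7 in THP-1, 41.5 in the MOLM13-labelled library and 92.8 in HL60. By TPM the ratio of PMPCA to PMPCB was 0.775 in K562, 2.15 in THP-1, 1.41 in the MOLM13-labelled library and 1.095 in HL60. The leading PMPCB transcript was 1161 bases long in K562, 3910 bases in THP-1 and in the MOLM13-labelled library, and 1714 bases in HL60. Coding density was taken as the aligned bases on the exons that hold coding sequence in 1 principal transcript per gene, untranslated parts of those exons included, over the coding length. On it the ratio was 1.02 in K562 (95% counting interval 0.973 to 1.08), 1.32 in THP-1 (1.26 to 1.38), 0.757 in the MOLM13-labelled library (0.705 to 0.814) and 1.055 in HL60 (1.02 to 1.09). With all aligned bases of each gene in place of those on coding exons, K562 came to 0.959, on the other side of 1. The 2 subunits lay closer to each other on this measure than by TPM in all 4 libraries, and the ratio in the MOLM13-labelled library lies above 1 by TPM and below 1 by coding density.

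The pairs of small TIM proteins and of TIMM17 forms were less even. By coding density TIMM9 stood at 0.294 of TIMM10 in K562, 0.211 in THP-1, 0.219 in the MOLM13-labelled library and 0.217 in HL60. With all aligned bases, which include those on 5′ untranslated exons, it was 0.492, 0.280, 0.338 and 0.328 in the same order. The coding density ratio of TIMM8A to TIMM13 was 0.273 in K562 (0.244 to 0.305), 0.192 in THP-1 (0.168 to 0.220), 0.107 in the MOLM13-labelled library (0.0889 to 0.128) and 0.0503 in HL60 (0.0456 to 0.0553), 4 values whose intervals do not overlap. TIMM17A exceeded TIMM17B 3.32-fold in K562, 3.43-fold in THP-1, 6.49-fold in the MOLM13-labelled library and 3.71-fold in HL60. By TPM this last ratio was 2.61, 1.80, 4.34 and 2.02 in the same order.

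**Figure D4:**
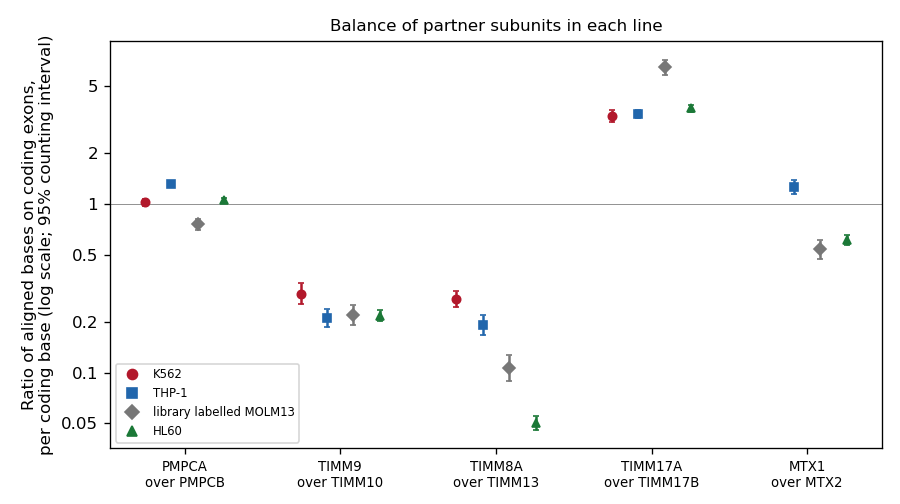
Ratio between partner subunits of aligned bases on coding exons per base of coding length (log scale) in each library, with 95% counting intervals; MTX1 is listed at 0 in K562 and has no point there. PMPCA over PMPCB lies between 0.757 and 1.32, and TIMM8A over TIMM13 runs from 0.273 in K562 to 0.0503 in HL60.

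Outer membrane barrel proteins are inserted by the sorting and assembly machinery. SAMM50, its barrel core, was 62.2 in K562, 83.7 in THP-1, 76.6 in the MOLM13-labelled library and 153 in HL60, and 1 transcript led in all 4 lines. HL60 was 1.83 times the next line. MTX2, a metaxin on the cytosolic face, was 45.1 in K562, 20.3 in THP-1, 35.03 in the MOLM13-labelled library and 45.3 in HL60. By TPM, K562 and HL60 do not differ beyond their counting intervals. The leading MTX2 transcript was 1592 bases long in K562 and 1341 bases in HL60. On aligned bases scaled for depth and not divided by length, MTX2 was 86.3 in K562 and 65.8 in HL60. MTX1, its partner, was listed at 0 in K562, at 24.3 in THP-1, 25.5 in the MOLM13-labelled library and 42.8 in HL60. No other gene on the same strand held bases on the MTX1 exons in any line. On the opposite strand AC234582.1, GBAP1 and THBS3 overlap these exons, and whether they took bases of MTX1 was not tested. Exons 6 to 8 of the principal MTX1 transcript had a depth of 0 in all 4 lines. In THP-1, 89.2% of the MTX1 bases were assigned to a transcript not listed as protein-coding. By coding density MTX1 stood at 1.26 of MTX2 in THP-1, 0.538 in the MOLM13-labelled library and 0.612 in HL60. With all aligned bases of each gene the HL60 value was 0.953.

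The disulfide relay folds small cysteine-rich proteins in the intermembrane space. CHCHD4, its oxidoreductase, was 22.9 in K562, 15.1 in THP-1, 16.0 in the MOLM13-labelled library and 22.3 in HL60, within 1.51-fold. GFER, the oxidase that recharges it, was 5.68 in K562 (interval 4.59 to 6.96), 12.6 in THP-1, 18.4 in the MOLM13-labelled library and 20.4 in HL60. K562 was 2.22-fold below the next line for GFER. There its leading transcript was 1365 bases long against 482 bases elsewhere, and without division by length K562 (7.55 bases per 1000000) and THP-1 (7.18) lay side by side.

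Transcript assignment was uneven over the whole list. Of the 32 members, 18 had the same leading transcript in every line above 0 and 14 did not. Transcripts that release 29 does not list as protein-coding led 7 of 27 members above 0 in K562, 5 of 31 in THP-1, 4 of 30 in the MOLM13-labelled library and 3 of 32 in HL60. These counts of leading transcripts were not taken over all genes, so whether the members differ from other genes here was not tested. The median range from the lowest to the highest line was 1.12 log2 units over the 27 members above 0 in all lines, and 1.32 over the 8097 nuclear protein-coding genes above 0 in all lines.

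Depth was also compared between the exon with the start codon and later exons of the principal transcript, with the 5′ untranslated bases of the start exon included. Against all later exons that hold coding bases, the median member had a ratio of 1.07 in K562 (27 members), 3.87 in THP-1 (31), 1.43 in the MOLM13-labelled library (30) and 2.23 in HL60 (32), where the medians over all genes were 1.51, 2.87, 1.46 and 2.32 in the same order. These later exons include the one with the stop codon and its 3′ untranslated bases, which lowers their mean depth where that exon is long. Against wholly coding exons alone, a measure chosen after the values were seen, the medians were 0.491 in K562 (24 members), 0.921 in THP-1 (26), 0.425 in the MOLM13-labelled library (25) and 0.766 in HL60 (26). Over all genes they were 0.730, 1.40, 0.718 and 1.12 in the same order, so the members' medians lay below those of all genes in each line, and THP-1 was the highest for both.

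Of the 24 members with a wholly coding exon and signal in all 4 lines, 2 had a ratio above 1 in every line on this second measure, and 13 had one below 1 in every line. TOMM20, 1 of the 2, had a ratio of 4.36 in K562, 5.89 in THP-1, 2.55 in the MOLM13-labelled library and 3.66 in HL60, and TIMM17A the other, between 1.21 and 1.84. The counts over every line were not taken for all genes. Line by line, 29.2% of members and 40.6% of all genes had a ratio above 1 in K562. These shares were 46.2% and 62.3% in THP-1, 24% and 39.6% in the MOLM13-labelled library, and 30.8% and 54.5% in HL60. With the stop-codon exon of TOMM20 included, 2773 bases long and at a depth of 1.41 to 2.31, its ratios ran from 19.5 to 48.7. TIMM50 was between 0.0568 and 0.240, and TIMM44, SAMM50 and TIMM17B were below 1 in all 4 lines on both measures. TOMM7, printed above, has 1 wholly coding exon of 49 bases. Its start exon, with the lower-case bases, had a depth of 331 against 165 on the second exon in K562, 335 against 145 in THP-1, 155 against 62.1 in the MOLM13-labelled library and 615 against 676 in HL60, so the start exon was the deeper of the 2 in each line but HL60. The deposited values give no position within an exon.

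**Figure D5:**
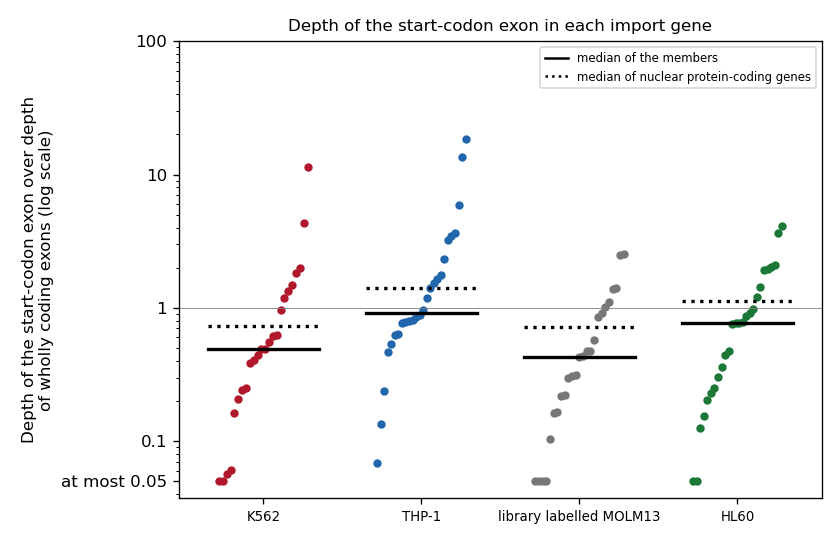
Depth of the exon with the start codon over the depth of wholly coding exons (log scale, values under 0.05 drawn at 0.05); each point is 1 member with signal in that library, solid bars are medians of the members and dotted bars medians of all genes measured. In each library the solid bar lies below the dotted one, and THP-1 has the highest medians, 0.921 for the members and 1.40 for all genes.

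Genes that work beside the members were read from 5 lists, 52 genes in all, of which 4 were called, 1 high and 3 low. These are 8% of the 50 with at least 600 aligned bases in any line, against 14.2% of all genes. Their median difference from the other 3 lines was -0.06 in K562, -0.06 in THP-1, -0.00 in the MOLM13-labelled library and 0.41 in HL60, where the median of all genes was -0.10, 0.05, 0.12 and -0.21 in the same order. Among 8 matrix chaperones 2 were called. GRPEL2, the second nucleotide exchange factor of mtHsp70, was high in HL60, at 58.7 there, 2.27 in K562, 3.29 in the MOLM13-labelled library and 8.12 in THP-1. DNAJC15, a J protein related to DNAJC19, was low in K562, listed at 0 there, at 13.0 in THP-1, 4.87 in the MOLM13-labelled library and 4.78 in HL60. HSPE1, the cofactor of the matrix chaperonin, had the highest level of this list, from 299 in HL60 to 548 in K562, and HSCB was listed at 0 in all 4 lines.

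Among 11 twin CX9C proteins, substrates or relatives of substrates of the disulfide relay, 2 were called, both low in the MOLM13-labelled library. COX17, the copper chaperone of cytochrome c oxidase, was listed at 0 there and was 55.8 in K562, 45.3 in THP-1 and 87.1 in HL60. UQCRH, a subunit of respiratory complex III, was 49.1 there, 455 in K562, 501 in THP-1 and 357 in HL60. COX6B1 had the highest level of the list, from 769.6 in HL60 to 1045 in K562, and COX19 was near the bottom, from 5.11 in K562 to 16.0 in HL60.

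None of the 13 other import and membrane insertion genes, the 13 presequence and quality control peptidases or the 7 MICOS genes was called. ROMO1 was the highest of the other import genes, from 282 in the MOLM13-labelled library to 320.5 in THP-1, and TOMM20L, a relative of TOMM20, was listed at 0 in all lines. YME1L1, an inner membrane protease that degrades import subunits, led the peptidases in the MOLM13-labelled library at 106. The inner membrane peptidase subunit IMMP1L was at the bottom in that library, listed at 0. Elsewhere IMMP1L was at 8.19 or lower, and SPG7 was below it in THP-1 and HL60, at 7.86 and 3.19. IMMT, the core of the MICOS complex, was 125 in K562, 107 in THP-1, 137 in the MOLM13-labelled library and 133 in HL60. APOOL, another MICOS subunit, stood between 6.07 and 8.07.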

How the data were processed

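Ribosome-protected fragments were sequenced from 4 leukemia lines, 1 library each. Per the labels' protocols, lysis was with cycloheximide, fragments were prepared with an ARTseq kit and ribosomal RNA was depleted with Ribo-Zero. The authors' tools were STAR 2.7.8a, StringTie 2.1.5, Trim Galore 0.6.6 and Bowtie2 2.4.2 on hg38, per the submitters' processing notes. Per the file headers, StringTie was run against GENCODE release 37 with no strand option. The deposited values used here are TPM and coverage per transcript and coverage per exon, per the file headers, so reads of overlapping genes on opposite strands, and of genes that share exons, were divided by StringTie. Without read counts, aligned bases were taken as coverage times length and divided by 29, the modal value on single-exon transcripts, to give footprint equivalents. Poisson intervals at the 95% level derive from them and cover counting error only, since fragments without molecular identifiers are not independent.

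TPM was summed per gene and divided by a size factor per library, the median ratio to the gene-wise geometric mean, taken from the 3751 genes that reach a TPM of 10 everywhere. Calls of high or low needed a distance of 2 in log2(scaled TPM + 1) from the nearest line and at least 600 aligned bases, which is 20.7 footprint equivalents with an interval of 61.7% to 153% of the value. The same rules on 12589 nuclear protein-coding genes gave the background. Medians over all genes used those reaching a scaled TPM of 1 somewhere. Bases per 1000000 are aligned bases over those on nuclear protein-coding genes. Gene classes, coding exons and sequences came from GENCODE release 29 on hg38, matched by gene ID for 58405 of 60651 genes, and exon depths were read by overlap of coordinates. The scaling and the calls were tested on simulated data. Software was pandas 2.3.3, NumPy 2.4.6 and SciPy 1.17.1 under Python 3.11.15, with Matplotlib 3.10.9 and pyarrow 21.0.0.

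The members, the other gene lists and the rules were chosen with earlier results of these data known. Every member is named; full values are given for members that were called, were at least 2-fold apart with 600 bases in each line, belong to a partner pair or stand at the top or bottom of a role, and for others where space allowed. Genes of the other lists are named when called or when highest or lowest in their list; neighbouring and overlapping genes were chosen after the values were seen. Alternatives were other scalings, no division by length, pseudocounts of 0.1 and 5, other minimums of aligned bases and distances, leaving out genes listed at 0 or the MOLM13-labelled library, and adding CORO7-PAM16 and TIMM23B. Summing all same-strand genes on the exons of a member, taking all aligned bases of a gene per coding base, and leaving the stop-codon exon out of the start exon ratio were added after the values were seen.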

Additional observations from a re-analysis of the deposited data

How the results depend on the processing

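No paired analysis was possible because each line has 1 library and the lines share no second replicate number. Without replicates, depth limits what can be read only through the counting intervals, and the spread between cultures of a line is unknown. The cause of the shifts below was not tested unless the setting itself shows it.

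Of the members, 4 were called high or low. This became 0 without genes listed at 0, 7 without the MOLM13-labelled library (where only 2 other lines remain for comparison) and 12 at a log2 difference of 1; it stayed within 1.5 times of 4 under the other 11 settings. At a log2 difference of 2 the members apart were 5 for K562 and THP-1, 3 for K562 and the MOLM13-labelled library, 7 for K562 and HL60, 1 for THP-1 and the MOLM13-labelled library, 3 for THP-1 and HL60 and 2 for the MOLM13-labelled library and HL60. K562 and the MOLM13-labelled library were apart for 5 members on aligned bases per 1000000 and for 3 with all genes on the exons of a member. K562 and HL60 were apart for 9 without genes listed at 0, and THP-1 and HL60 for 3 with a pseudocount of 5.

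The median difference in HL60 stayed above 0 in all 12 alternatives: 0.60 with deposited TPM, 0.32 with TPM rescaled over nuclear protein-coding genes, 0.31 on aligned bases per 1000000, 0.28 with all genes on the exons and 0.84 as a mean. In THP-1 it stayed below 0: -0.43 rescaled, -0.38 on aligned bases per 1000000, -0.39 without genes listed at 0, -0.43 without the MOLM13-labelled library, -0.43 with all genes on the exons and -0.10 as a mean. In K562 the sign changed: -0.56 with deposited TPM, 0.020 rescaled, 0.035 on aligned bases per 1000000, -0.0045 without genes listed at 0, -0.31 without the MOLM13-labelled library, 0.12 with all genes on the exons and -0.64 as a mean. In the MOLM13-labelled library it was 0.15 with deposited TPM, 0.089 rescaled and 0.093 on aligned bases per 1000000. These scalings also moved the median of all genes: in K562 from -0.10 to -0.39 with deposited TPM, 0.11 rescaled and 0.14 on aligned bases per 1000000, and in the MOLM13-labelled library from 0.12 to 0.32, 0.26 and 0.26.

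Against wholly coding exons alone, the median ratio of the start exon was 0.491 in K562, 0.921 in THP-1, 0.425 in the MOLM13-labelled library and 0.766 in HL60. Each was below 1 where it was above 1 against all later coding exons. As a share of TPM in place of footprints the members took 0.414% in K562, 0.402% in THP-1, 0.418% in the MOLM13-labelled library and 0.516% in HL60. Without TOMM5, TOMM6 and TOMM7 the share of footprints was 0.285%, 0.222%, 0.258% and 0.325%. With CORO7-PAM16 and TIMM23B added it was 0.330% in K562, 0.309% in the MOLM13-labelled library and 0.297% in THP-1, and with all genes on the exons 0.345% in K562. HL60 was highest by each of these measures. Genes of the other lists called were 15 at a log2 difference of 1. Leaving out the MOLM13-labelled library leaves each pair of the other lines as it was.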

Other observations

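Copies of member genes elsewhere in the genome held signal too, in genes chosen after their values were seen. The processed copy TIMM9P3 was 24.9 in K562, 4.32 in THP-1, 7.37 in the MOLM13-labelled library and 6.46 in HL60 on the scale of scaled TPM, where TIMM9 itself was 37.3, 33.3, 60.5 and 63.2 in that order. TIMM8BP2, a copy of TIMM8B, was 9.92 in the MOLM13-labelled library, 1.099 in HL60 and listed at 0 in K562, and TIMM8B itself is listed at 0 in all lines but HL60. TOMM20P1, a copy of TOMM20, was 14.7 in THP-1, 3.77 in K562, 1.54 in HL60 and listed at 0 in the MOLM13-labelled library. How reads of a gene and its copy were divided was not tested.

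MICOS10, a MICOS subunit, had a wide range without being called: it was 34.7 in K562, 88.9 in THP-1, 65.7 in the MOLM13-labelled library and 332 in HL60, which lay just short of the 4-fold rule against the nearest line. CMC1, a twin CX9C assembly factor of cytochrome c oxidase, was 10.3 in K562, 74.5 in THP-1, 36.4 in the MOLM13-labelled library and 48.5 in HL60. Both were picked after their values were seen.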
